A study of Rattus norvegicus with 10 samples.

Results

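The genes of synaptic vesicles and transmitter release were described across 5 regions of the rat brain after cocaine or saline. Members were the synaptotagmins (Syt), syntaxins (Stx) and syntaxin-binding proteins (Stxbp), the Vamp, complexin (Cplx), Rab3 and Unc13 families, and Syp, Syn1, Syn2, Sv2a, Sv2b, Snap25, Snap91, Nsf, Napa, Napb, Rph3a, Sncb, Amph and Dnm1, wherever a probe set was annotated with exactly 1 gene symbol. This gave 49 of the 4736 genes so annotated, on 68 probe sets, and a gene with several probe sets was represented by the one with the highest mean. Rab3 was read as the Rab3 subfamily, so Rab33b, Rab34, Rab38 and Rab3ip were left out. The amygdala (AMY), caudate putamen (CPU), nucleus accumbens (NA), prefrontal cortex (PFC) and ventral tegmental area (VTA) each had 1 array of total RNA from cocaine-treated rats and 1 from saline-treated controls, 10 arrays in all. Cocaine is a psychostimulant that blocks dopamine reuptake. Dopamine neurons of the ventral tegmental area send axons to the nucleus accumbens, prefrontal cortex and amygdala. The sources used here give no strain, age, dose, schedule, time of dissection or pooling of animals. With 1 array per region and treatment, the p-values measure only how the difference between cocaine and saline varied between regions in these samples. That spread may be technical, and it would also hold any effect of cocaine that differs by region. The labels do not say whether arrays came from separate animals.

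Values were expression indices, the model-based brightness of a probe set on a linear scale. The index of 1 probe set cannot be set against that of another, so only differences between arrays are given. A floor of 1028, the 20th percentile of the nonzero indices, replaced lower values before the log2 step, and an exact 0 counted as no value. The array medians lay between 2208 and 2310, and exact zeros ranged from 8 on the NA saline array to 226 on the PFC cocaine array. The striatal marker list was higher in CPU for 6 of 7 tested genes, and the dopamine neuron list was higher in VTA for 2 of 6 and lower for 1.

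A nerve terminal releases transmitter when a vesicle SNARE of the Vamp family zips together with the plasma membrane SNAREs Stx1a and Snap25, after Unc13 proteins have primed the vesicle and while complexins hold the assembling complex. Calcium binding to a synaptotagmin then triggers fusion. Synapsins tether the reserve vesicles, Rab3 proteins and their effector rabphilin (Rph3a) guide vesicles to the membrane, Nsf and Napa take spent SNARE complexes apart, and dynamin, amphiphysin and the clathrin adaptor Snap91 recover the membrane.

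Of the 49 members, 40 passed a filter on the mean index over all 10 arrays and were tested. The other 9, Rab3c, Stxbp5, Unc13c, Stx4, Stx6, Stxbp2, Vamp5, Syt9 and Syt10, lay between 427 and 1848 on every array. Across the 5 regions 11 of the 40 differed (limma F-test, adjusted p under 0.05), against 9.25% of all 5232 probe sets with a test. They were the vesicle membrane genes Syp, Sv2a and Sv2b, the SNARE genes Vamp2, Snap25 and Stx8, the complexin genes Cplx1 and Cplx2, the calcium sensor Syt1, the vesicle GTPase Rab3a and the fission GTPase Dnm1. Each region was then set against the mean of the other 4. In CPU 8 members were lower (background 2.35%) and 0 higher (1.74%). In PFC 4 were higher (background 1.36%) and 0 lower (3.69%). In VTA 3 were lower (background 3.23%) and 2 higher (7.82%), which for the higher direction is below the background share. In AMY 1 was higher (0.401%) and 1 lower (0.21%), and in NA 0 were higher (0.459%) or lower (0.0765%). These 5 contrasts come from 1 limma fit with a treatment term and share all arrays, so a gene low in 1 region is pushed up in the others. In whole-tissue RNA, fewer cells of a type and less RNA per cell cannot be told apart. The count of 11 fell to 3 without either CPU array, to 4 without the NA saline array or either VTA array and to 5 without the NA cocaine array. It was 6 when exact zeros were set to the floor, and 5 without the filter. For counts under such changed settings, here and below, no share over all probe sets is given. Their changes are therefore not read as a trait of the members.

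**Figure D1:**
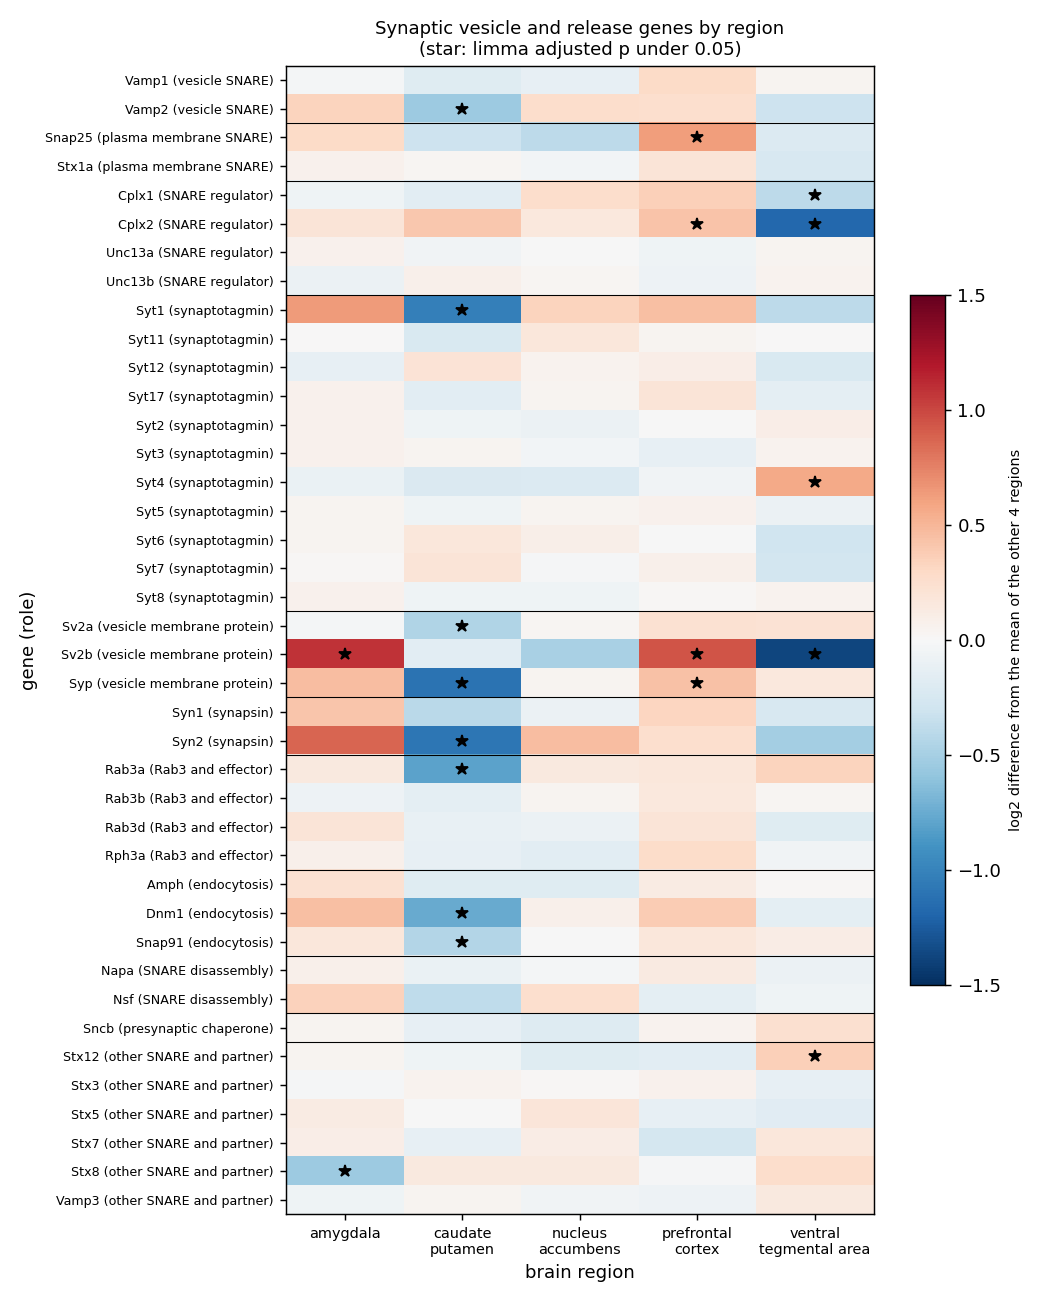
Log2 difference of each region (columns) from the mean of the other 4 for the 40 tested members (rows, grouped by role), blue lower and red higher, with a star where the limma adjusted p was under 0.05. The CPU column holds 8 starred members, all lower, and the deepest colours are Sv2b and Cplx2 in the VTA column, at -1.38 and -1.18.

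The promoters shown are those of the 7 members lower in CPU that had an entry, and of Sv2b and Cplx2, the 2 members with the largest differences in VTA. Each spans 300 bases, most of them before the start of the gene, 5′ to 3′ on the strand of the gene, from RefSeq on build GRCr8, whose table held 41 of the 49 members. Capitals mark the letters of 5 motifs searched on both strands: the cyclic AMP element TGACGTCA, the GC box GGGCGG, the Egr motif GCGGGGGCG, which can overlap a GC box, TATAAA and CCAAT. Syp lies at chrX:17536400-17536699 on the minus strand, Vamp2 at chr10:54292539-54292838 on the plus strand, Syn2 at chr4:149858669-149858968 on the plus strand and Syt1 at chr7:46244164-46244463 on the minus strand. Rab3a lies at chr16:18722224-18722523 on the minus strand, Dnm1 at chr3:36046240-36046539 on the minus strand and Sv2a at chr2:186430113-186430412 on the plus strand.
Syp: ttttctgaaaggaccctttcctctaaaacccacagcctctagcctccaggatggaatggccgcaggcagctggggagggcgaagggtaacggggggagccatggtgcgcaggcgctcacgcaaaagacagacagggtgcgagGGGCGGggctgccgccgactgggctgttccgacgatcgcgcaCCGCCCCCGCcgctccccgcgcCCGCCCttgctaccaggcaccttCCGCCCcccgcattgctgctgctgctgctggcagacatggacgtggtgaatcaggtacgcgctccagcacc
Vamp2: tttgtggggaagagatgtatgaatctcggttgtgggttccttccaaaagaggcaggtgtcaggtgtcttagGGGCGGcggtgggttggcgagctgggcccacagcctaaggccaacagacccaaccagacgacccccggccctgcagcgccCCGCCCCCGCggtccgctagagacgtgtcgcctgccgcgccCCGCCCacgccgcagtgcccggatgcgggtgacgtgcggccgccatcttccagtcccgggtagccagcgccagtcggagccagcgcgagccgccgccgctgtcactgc
Syn2: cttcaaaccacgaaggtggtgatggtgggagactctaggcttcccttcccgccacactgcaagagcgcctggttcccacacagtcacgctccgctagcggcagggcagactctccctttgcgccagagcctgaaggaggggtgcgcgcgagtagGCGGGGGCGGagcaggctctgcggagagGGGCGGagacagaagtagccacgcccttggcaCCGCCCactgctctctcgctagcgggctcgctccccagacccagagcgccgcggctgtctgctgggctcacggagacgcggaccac
Syt1: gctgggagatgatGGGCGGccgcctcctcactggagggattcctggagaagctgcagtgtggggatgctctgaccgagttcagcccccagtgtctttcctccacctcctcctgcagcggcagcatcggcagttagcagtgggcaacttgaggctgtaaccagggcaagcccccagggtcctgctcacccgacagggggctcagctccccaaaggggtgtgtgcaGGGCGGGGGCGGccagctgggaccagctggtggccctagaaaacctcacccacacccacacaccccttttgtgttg
Rab3a: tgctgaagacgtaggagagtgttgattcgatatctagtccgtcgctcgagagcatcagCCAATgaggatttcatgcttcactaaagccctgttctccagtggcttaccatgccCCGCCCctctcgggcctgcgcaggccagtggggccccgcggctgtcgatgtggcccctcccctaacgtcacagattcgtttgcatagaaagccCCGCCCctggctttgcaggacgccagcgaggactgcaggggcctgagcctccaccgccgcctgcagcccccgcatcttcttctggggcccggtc
Dnm1: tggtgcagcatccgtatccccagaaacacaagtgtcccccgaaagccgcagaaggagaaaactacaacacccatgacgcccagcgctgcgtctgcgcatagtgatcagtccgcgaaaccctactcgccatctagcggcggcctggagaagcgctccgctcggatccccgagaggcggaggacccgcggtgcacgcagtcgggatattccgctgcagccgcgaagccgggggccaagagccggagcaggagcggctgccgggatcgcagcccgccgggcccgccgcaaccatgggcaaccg
Sv2a: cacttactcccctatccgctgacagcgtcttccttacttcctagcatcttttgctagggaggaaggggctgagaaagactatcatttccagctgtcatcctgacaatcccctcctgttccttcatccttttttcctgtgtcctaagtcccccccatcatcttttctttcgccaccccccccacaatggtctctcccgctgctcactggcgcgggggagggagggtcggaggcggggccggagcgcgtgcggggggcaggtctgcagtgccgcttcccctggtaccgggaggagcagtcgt
Sv2b lies at chr1:138562209-138562508 and Cplx2 at chr17:10236704-10237003, both on the minus strand.
Sv2b: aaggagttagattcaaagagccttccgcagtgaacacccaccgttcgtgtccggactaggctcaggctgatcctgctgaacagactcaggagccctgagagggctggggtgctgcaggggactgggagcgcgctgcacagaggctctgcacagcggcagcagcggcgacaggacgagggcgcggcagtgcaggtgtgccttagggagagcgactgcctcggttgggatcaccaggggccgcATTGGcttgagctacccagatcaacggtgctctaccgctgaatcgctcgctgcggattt
Cplx2: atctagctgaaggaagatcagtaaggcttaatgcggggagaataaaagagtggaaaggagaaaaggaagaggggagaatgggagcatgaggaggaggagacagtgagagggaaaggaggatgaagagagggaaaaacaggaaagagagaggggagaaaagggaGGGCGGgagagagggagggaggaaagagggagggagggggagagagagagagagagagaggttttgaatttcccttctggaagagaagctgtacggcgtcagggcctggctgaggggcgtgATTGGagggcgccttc
Of the 7 members lower in CPU, 4 (57.1%), Syp, Vamp2, Syn2 and Syt1, held the Egr letters, and Rab3a, Dnm1 and Sv2a did not. The letters were also in 4 of 26 other tested members (15.4%), 9 of all 41 member promoters (22.0%) and in 2.73% of the 33469 promoters in the table. GC content moved alongside, with a median of 67.0% in those 7, 62.2% in the 26 and 51.7% over all promoters, and its part in the motif counts was not tested. The GC box was in 5 of the 7 and 19 of the 26, against 33.1% of all promoters. CCAAT split the other way from the Egr letters, in 1 of the 7 and 12 of the 26, against 37.5% of all promoters. Neither Sv2b nor Cplx2 held the Egr letters, and their capitals mark a CCAAT box on the opposite strand (ATTGG) and, in Cplx2, a GC box as well. The cyclic AMP element was in 3 member promoters, none of them of a member lower in CPU, and TATAAA was in 0 of 41, against 1.83% and 14.2% of all promoters. These matches are of letters only and say nothing of a factor.

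The 3 vesicle membrane genes all passed the F-test, Syp and Sv2a with their lowest values in CPU and Sv2b in VTA. Syp encodes synaptophysin, the abundant membrane protein used to mark synaptic vesicles. Its index was 17774 with saline and 18543 with cocaine in AMY, 7618 and 7594 in CPU, 15572 and 13285 in NA, 18743 and 17093 in PFC, and 16988 and 13844 in VTA. Both CPU arrays lay below the other 8, at a log2 difference of -1.11 ± 0.09 (SE), or 2.15-fold below the other regions (limma adjusted p = 0.000638). In PFC Syp was 1.35-fold higher (log2 difference 0.44 ± 0.09, limma adjusted p = 0.0345), although the PFC arrays overlapped those of AMY. The AMY difference was as large, at 0.46 ± 0.09, and did not pass (limma adjusted p = 0.0849). Sv2a, a transporter-like vesicle glycoprotein, read 2701 and 2678 in CPU and between 3402 and 3957 on the other 8 arrays, 1.37-fold lower in CPU (log2 difference -0.45 ± 0.07, limma adjusted p = 0.0108).

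Sv2b, the paralog of Sv2a, followed another map. Its index was 12918 and 16481 in AMY and 14111 and 12971 in PFC, 7620 and 7057 in CPU, 6308 and 5985 in NA, and 3480 and 4002 in VTA, saline first. AMY and PFC thus formed a high group, CPU and NA a middle group and VTA a low group, with no overlap between the groups. Against the mean of the other regions Sv2b was 2.11-fold higher in AMY (log2 difference 1.08 ± 0.11, limma adjusted p = 0.0106), 1.92-fold higher in PFC (0.94 ± 0.11, 0.00365) and 2.60-fold lower in VTA (-1.38 ± 0.11, 0.000242). A second Sv2b probe set gave 1.10, 0.98 and -1.38 for the same log2 differences. Without either CPU array or the NA cocaine array, 0 members were called higher in AMY, and without the AMY saline array 6 were.

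Synapsins differed in CPU for Syn2. Syn2 read 947 and 1128 in CPU, between 2488 and 3959 in NA and AMY, 2971 and 1736 in PFC, and 1815 and 1220 in VTA, saline first. Its CPU saline value lay below the floor and the cocaine value just above it, so the fitted 2.13-fold (log2 difference -1.09 ± 0.24, limma adjusted p = 0.0469) rests partly on the floor, and its F-test over the regions had a limma adjusted p of 0.0537. The other 2 Syn2 probe sets, which lay above the floor in CPU, were 1.65-fold and 1.63-fold lower there (limma adjusted p = 0.00917 and 0.0115). Syn1 read 3840 and 3820 in CPU against 3687 to 6528 elsewhere, with a log2 difference of -0.40 ± 0.12 that did not pass (limma adjusted p = 0.115).

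Among the SNAREs, Vamp2, the main vesicle SNARE of forebrain synapses, read 11162 and 11279 in CPU, 18476 and 17983 in AMY, 19225 and 15996 in NA, 17472 and 17412 in PFC, and 13459 and 12108 in VTA. CPU lay below all other arrays, 1.46-fold under the other regions (log2 difference -0.54 ± 0.08, limma adjusted p = 0.0101), and VTA came next at -0.31 ± 0.08, which did not pass (limma adjusted p = 0.0513). A second Vamp2 probe set had a CPU log2 difference of -0.28 and was not called. Its paralog Vamp1 read between 7294 and 10619 on the 10 arrays and was called in no region. Snap25, a plasma membrane SNARE, read 34474 and 33725 in PFC, above the 31529 and 24990 of AMY and the 18826 to 23928 of the other 3 regions. It was 1.55-fold higher in PFC (log2 difference 0.63 ± 0.12, limma adjusted p = 0.0234), and a second probe set was 1.61-fold higher (0.00672), while a dimmer one had a log2 difference of 0.18 and was not called there (0.751).

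Probe sets of 1 gene did not always follow each other. Stx1a, the partner of Snap25 at the membrane, was represented by a probe set that read between 12502 and 16317 on the 10 arrays and was called in no region (CPU log2 difference 0.02 ± 0.09). A dimmer Stx1a probe set read 7648 and 5831 in PFC and 4493 and 5774 in AMY but 1872 to 2575 in CPU, NA and VTA. That probe set was 2.50-fold higher in PFC (limma adjusted p = 0.00273), 1.81-fold lower in CPU (0.0130) and 1.75-fold lower in VTA (0.00988). Another tested Snap25 probe set was 2.53-fold lower in CPU (0.0163) while its brighter partners had a log2 difference of -0.31 there. It read 0 on the VTA cocaine array, which was dropped from its fit. Over the 11 members with several tested probe sets there were 12 pairs of member and region with at least 1 probe set called, and the signs differed in 1 of them, Stx1a in CPU.

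**Figure D2:**
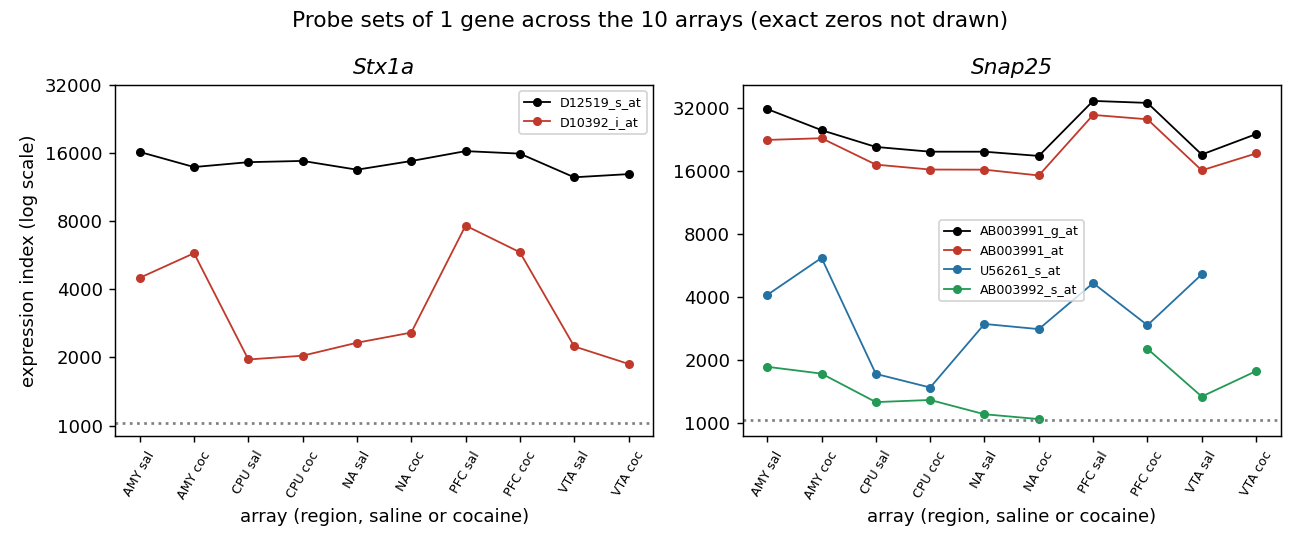
Expression index (log axis) of the probe sets of Stx1a and Snap25 on the 10 arrays, 1 line per probe set joining arrays that have no order, exact zeros not drawn, dotted line at the floor of 1028. The upper Stx1a probe set stays between 12502 and 16317 while the lower one ranges from 1872 to 7648, and the upper pair of Snap25 probe sets peak together in PFC.

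Of the SNARE regulators, both complexins were lower in VTA. Cplx2 read 3403 and 3100 in VTA and between 6373 and 8280 on the other 8 arrays, a 2.27-fold difference (log2 difference -1.18 ± 0.09, limma adjusted p = 0.000242). Cplx1 read 5560 and 4757 in VTA against 5831 to 7894 elsewhere, 1.31-fold lower (-0.39 ± 0.09, 0.0270). For both genes the VTA arrays lay below the other 8. That held for 5 of 40 members, against 4.60% of all tested probe sets. The others were Sv2b and, not called in VTA, Stx1a and Syt6. Cplx2 was also 1.35-fold higher in PFC (log2 difference 0.43 ± 0.09, limma adjusted p = 0.0394), where its arrays overlapped those of CPU. Its CPU difference was of similar size, at 0.40 ± 0.09, and did not pass (limma adjusted p = 0.0572). The priming factors Unc13a and Unc13b were called in no region, with log2 differences between -0.09 and 0.08.

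For 7 paralog pairs the log2 ratio within the pair was compared between the 2 VTA arrays and the other 8. The test was a two-sided exact permutation test over all 45 assignments, whose smallest p is 0.0222. It shuffles single arrays as if they were exchangeable, although the 2 arrays of a region belong together. Its p-values are therefore descriptive only. The low Sv2b and Cplx2 values in VTA given above enter the ratios of their pairs, so for these pairs the ratio restates that pattern and is no independent support for it. Sv2a over Sv2b shifted by 1.60 towards Sv2a in VTA, from a range of -2.28 to -0.78 elsewhere to -0.03 and 0.15. Cplx1 over Cplx2 shifted by 0.79, from -0.45 to 0.26 elsewhere to 0.62 and 0.71. Both pairs had no overlap and reached the smallest exact p (0.0778 after adjustment over the 7 pairs), and in this design no pair could pass 0.05 after adjustment unless at least 4 pairs reached it. The shifts of the other 5 pairs were 0.35 for Vamp1 over Vamp2, 0.31 for Rab3a over Rab3b, 0.26 for Syn1 over Syn2, -0.01 for Unc13a over Unc13b and -0.49 for Syt1 over Syt2, with exact permutation p from 0.200 to 0.911.

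**Figure D3:**
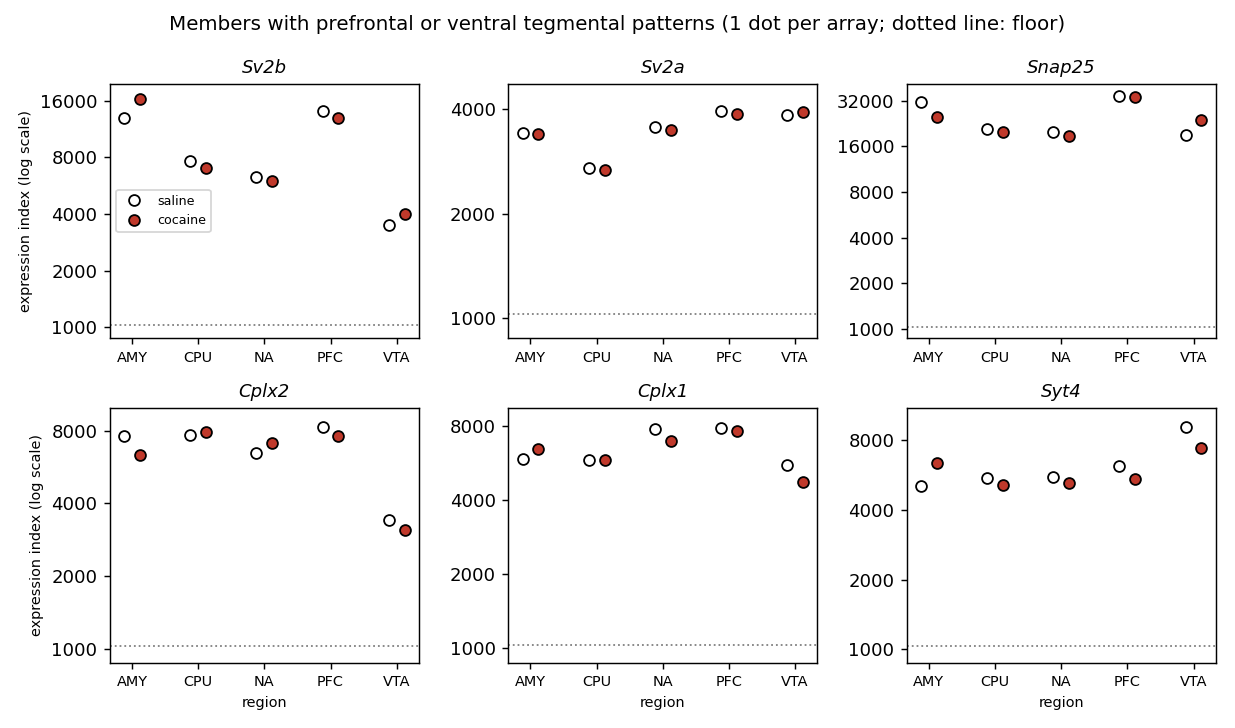
Expression index (log axis) of 6 members on each array by region, open circles saline and filled circles cocaine, dotted line at the floor. Sv2b and Cplx2 are lowest in VTA, where Sv2b reads 3480 and 4002 and Cplx2 3403 and 3100, Snap25 is highest in PFC and Syt4 highest in VTA.

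Synaptotagmins were measured for 13 genes, of which 11 were tested and 1, Syt1, passed the F-test. Syt1, the calcium sensor for fast release in forebrain neurons, read 1115 and 966 in CPU, 1600 and 1437 in VTA, 2553 and 2022 in NA, 2241 and 3217 in AMY, and 3106 and 1882 in PFC, saline first. Both CPU arrays lay below the other 8, and the cocaine one lay below the floor. The fitted difference was 2.03-fold (log2 difference -1.02 ± 0.20, limma adjusted p = 0.0278). Syt4, a synaptotagmin that does not bind calcium through its first C2 domain and is found on neuropeptide vesicles, read 9187 and 7432 in VTA and 5099 to 6390 elsewhere, 1.49-fold higher (0.57 ± 0.12, limma adjusted p = 0.0183). A second Syt4 probe set gave 0.70 and was also called, although the F-test of the first had a limma adjusted p of 0.102. The other 9 tested synaptotagmins were called in no region, and their log2 differences ran from -0.30, for Syt6 in VTA, to 0.20, for Syt12 in CPU.

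In the Rab3 group, Rab3a, the most abundant vesicle Rab of brain, read 5756 and 5438 in CPU and between 8364 and 10756 on the other 8 arrays, 1.74-fold lower (log2 difference -0.80 ± 0.11, limma adjusted p = 0.00835). Rab3b, Rab3d and the effector Rph3a were called in no region. For membrane recovery, Dnm1, the neuronal dynamin that pinches off vesicles, read 6014 and 6120 in CPU and between 7999 and 13158 elsewhere, 1.69-fold lower (-0.76 ± 0.11, 0.00937). Snap91, the clathrin adaptor AP180, read 2374 and 2395 in CPU and between 2972 and 3528 elsewhere, 1.36-fold lower (-0.44 ± 0.08, 0.0265), with an F-test at a limma adjusted p of 0.0721. Amph, a partner of dynamin, was called in no region. Nsf and Napa, which disassemble SNARE complexes, and Sncb, a synuclein of terminals, were also called in none.

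The SNAREs of endosomes and other compartments were called less evenly. Stx8, a late endosomal syntaxin, read 2734 and 2813 in AMY and 3567 to 4336 elsewhere, 1.45-fold lower (log2 difference -0.54 ± 0.07, limma adjusted p = 0.0242). Without a CPU, NA or VTA array, whichever of the 6 was left out, it was not called. A dimmer Stx8 probe set, not tested, read 2146 and 1395 in AMY, the highest and the lowest of its 10 arrays, and did not show the lower AMY level. Stx12, an endosomal syntaxin, read 5241 and 5738 in VTA and 3902 to 4715 elsewhere, 1.28-fold higher (0.36 ± 0.09, limma adjusted p = 0.0336). Its F-test did not pass (0.139), and a second Stx12 probe set had a VTA log2 difference of 0.19 that was not called (0.326). Stx3, Stx5, Stx7 and Vamp3 were called in no region. Stx3 had no value on the PFC saline array and Syt17 none on the AMY cocaine array, and those arrays were dropped from their fits.

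For all 8 members lower in CPU, Syp, Syn2, Syt1, Rab3a, Dnm1, Vamp2, Sv2a and Snap91, both CPU arrays lay below the other 8 arrays. That was 8 of 40 members, against 7.99% of all tested probe sets. The order of the arrays rests on the same values as the calls and is no second support for them. Over the 40 members the median log2 difference of CPU was -0.13, against -0.04 over all tested probe sets. The caudate putamen and the nucleus accumbens are neighbouring parts of the striatum, and set directly against NA, a comparison chosen after the data were seen, CPU was lower for 2 members (background 0.44%) and higher for 0 (0.325%). The 2 were Syp, 1.89-fold lower in CPU, and Vamp2, 1.56-fold lower (limma adjusted p = 0.0210 and 0.0417). The other 6 had folds of 1.27 to 2.36 and did not pass. For all 8 the direction was fixed beforehand, since both CPU arrays lay below every other array, so it is no separate support. Over the 40 members the median log2 difference of CPU from NA was -0.0265, and over all tested probe sets it was -0.0266. Without either CPU array, which leaves a lone array assumed to vary like the other regions, 1 member, Syp, was called lower in CPU. Without the NA saline array 4 were, without the NA cocaine or the VTA cocaine array 5, and without the filter on low values 3.

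**Figure D4:**
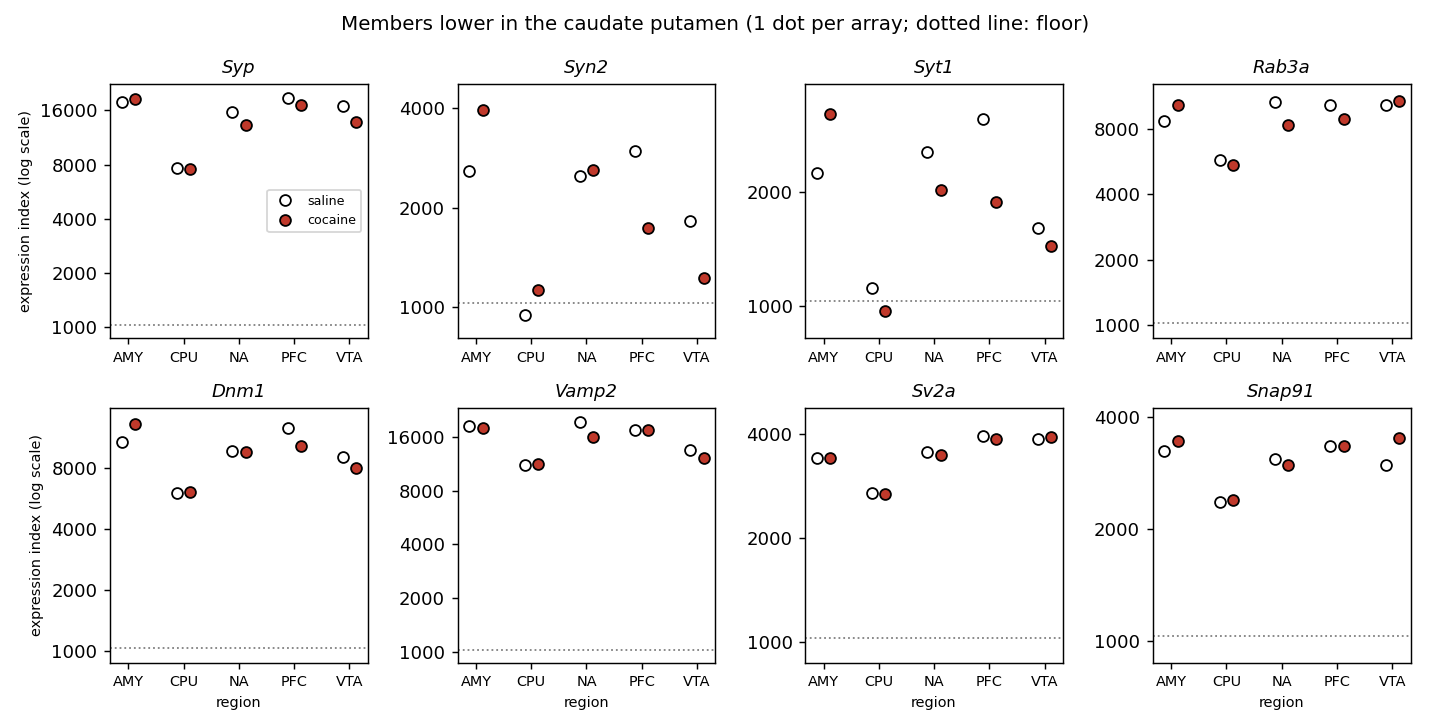
Expression index (log axis) of the 8 members lower in CPU on each of the 10 arrays by region, open circles saline and filled circles cocaine, dotted line at the floor of 1028. In every panel both CPU circles lie below the other 8, and for Syn2 and Syt1 1 of them lies under the floor.

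Other cell markers moved with CPU. The list sums given here and below add indices of different probe sets, so the brightest genes weigh most. Some sums also include measured genes that were not tested. Of 8 general neuron markers 4, Gap43, Uchl1, Map2 and Rtn1, were lower in CPU, and the summed index of the list was 76337 and 77288 there against 97754 to 117007 on 7 of the other arrays, with 68687 on the PFC cocaine array, where Thy1 was listed at 0. Of 6 oligodendrocyte markers 3 were higher, with sums of 114184 to 123994 in CPU and 65638 to 119292 elsewhere. The choroid plexus list summed to 55024 and 27769 in CPU, 60403 and 46529 in AMY and 15841 to 22427 elsewhere. The part of these markers in the lower CPU values was not tested.

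The PFC and VTA differences also had company. In PFC Sv2b, Snap25, Syp and Cplx2 were higher. The differences of Syp in AMY and of Cplx2 in CPU were of similar size and did not pass. Also higher in PFC were 2 of 3 tested markers of excitatory cortical and amygdala neurons, Nrgn and Cck. The sum of that list was 74346 and 75952 in PFC against 18678 to 61608 elsewhere. In the same region 3 of 6 oligodendrocyte markers were lower (sums of 65638 and 73336, against 77787 to 123994 elsewhere), as were 6 of 7 striatal and 2 of 4 choroid plexus markers. In VTA the same 2 markers were lower, at sums of 18678 and 23287, 4 of 6 oligodendrocyte markers were higher and 5 of 7 striatal markers lower. Of 8 general neuron markers 2 were higher in VTA and 0 lower, and of 6 inhibitory neuron markers 1 was lower there and 0 higher. Hypothalamic markers summed to 28305 on the VTA saline and 15471 on the VTA cocaine array, against 11696 to 14210 elsewhere. The part of these markers was not tested. The count of 4 members higher in PFC fell to 1 without any 1 CPU, NA or PFC array and to 2 without either VTA array, and rose to 8 without the AMY cocaine array. With zeros at the floor it was 1, with arrays scaled to 1 median 2 and without the filter 0. No share over all probe sets is given beside the counts under these settings. The 3 members lower in VTA were 8 without the AMY saline and 5 without the AMY cocaine array, and Sv2b and Cplx2 kept their call in VTA with each array left out. The 2 members higher in VTA fell to 0 without any 1 CPU, NA or VTA array, to 1 without the PFC saline array and to 0 after quantile normalization, and were 4 without the AMY cocaine array.

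Other genes of release and recycling, listed for their function and not members, were measured for 46 of 68 symbols and tested for 33. Of these 5 passed the F-test (background 9.25%), and in CPU 6 were lower (2.35%) and 0 higher (1.74%). Cadps, a priming factor for dense-core vesicles, was 2.07-fold lower in CPU (2522 and 2403, against 3572 to 6594 elsewhere, limma adjusted p = 0.00236) and 1.65-fold higher in VTA (0.00710). The vacuolar ATPase subunits that acidify vesicles, Atp6v1b2, Atp6v0c and Atp6v1a, were 1.60-fold, 1.58-fold and 1.42-fold lower in CPU, and the recycling genes Sh3gl2 and Synj1 fell below the other regions by log2 differences of -0.54 and -0.49. Slc32a1, which loads GABA and glycine into vesicles, was 1.77-fold lower in PFC (limma adjusted p = 0.0269), where 2 of the 33 were lower (background 3.69%). In VTA 3 were higher (7.82%) and 1 lower (3.23%), counts near the background.

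Cocaine was compared with saline across the 5 regions with region as a block. Of the 40 members 0 passed (limma, 0 of 5232 probe sets or 0.0%), and 0 had an unadjusted p under 0.05, against 69 of the 5232 probe sets (1.32%). The sign was lower with cocaine for 30 members and higher for 10, and after quantile normalization it was lower for 22. The median log2 change was -0.02 over the members and -0.01 over all probe sets. No matching share over all probe sets is given, so the split is not read as a trait of the members. Within regions, the share lower in sign was 46.2% of members against 55.0% of all in AMY and 62.5% against 59.2% in CPU. It was 67.5% against 59.4% in NA, 59.0% against 48.0% in PFC and 55.0% against 42.4% in VTA. The 5 members with the lowest change were Syt1 (-0.16 ± 0.16, SE), Stx7 (-0.14 ± 0.12), Syp (-0.12 ± 0.07), Syn2 (-0.11 ± 0.19) and Nsf (-0.10 ± 0.12). The 5 highest were Syt5 (0.07 ± 0.07), Snap91 (0.06 ± 0.07), Sv2b (0.05 ± 0.09), Rab3d (0.04 ± 0.13) and Sncb (0.04 ± 0.06). In Syp the log2 ratio of cocaine to saline was -0.30 in VTA, -0.23 in NA, -0.13 in PFC and 0.06 in AMY, so it was not of 1 sign in all regions. Without the AMY pair of arrays 0 members passed and 4 had an unadjusted p under 0.05, a count whose share over all probe sets is not given. Of the 33 other release genes 0 passed and 0 had an unadjusted p under 0.05 (limma), and the 4 with the largest change were Slc32a1 (-0.21), Atp6v1b2 (-0.21), Cadps (-0.14) and Lin7b (-0.12).

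Within a region 1 array stood against 1, so no test was possible, and a fold of at least 1.5 was the only criterion. In AMY Syn2 was 1.53-fold higher with cocaine (2587 to 3959), 1 of 39 members with both values, against 1.42% of probe sets past the fold upwards and 7.47% downwards, where 0 members lay. In PFC Syn2 was 1.71-fold lower (2971 to 1736) and Syt1 1.65-fold lower (3106 to 1882), 2 members against 1.72% downwards, and 0 members were among the 3.2% upwards. In CPU (0.0382% higher, 0.115% lower), NA (0.0573% and 0.172%) and VTA (0.895% and 0.758%) 0 members passed the fold. The other Syn2 probe sets did not repeat the fold. In PFC they had log2 ratios of 0.17 and -0.19, against -0.78 for the first, in VTA 0.0018 and -0.15, against -0.57, and in AMY 1 had 0.28 and the other was listed at 0 on the cocaine array. The median size of the log2 ratio over members was 0.22 in AMY, 0.14 in VTA, 0.11 in PFC, 0.09 in NA and 0.08 in CPU, against 0.19, 0.13, 0.18, 0.09 and 0.08 over all tested probe sets.

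The AMY and PFC ratios, which share no array, ran in opposite directions. Across 38 members, which are not independent replicates, Pearson's r between them was -0.76, and 25 of the 38 (65.8%) had opposite signs. Over 5005 probe sets r was -0.62 and 73.0% had opposite signs, so the members followed the arrays as a whole. The opposition was not particular to AMY and PFC. Between AMY and VTA r was -0.56 over members and -0.59 over all tested probe sets, and between PFC and VTA it was 0.51 and 0.58. Syt1 was at 0.52 in AMY and -0.72 in PFC. Nsf was at 0.28 and -0.50, and Stx7 at 0.42 and -0.46. The array with the most exact zeros was PFC cocaine with 226, followed by VTA cocaine with 120 and AMY saline with 91. The part of array quality in the ratios was not tested.

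**Figure D5:**
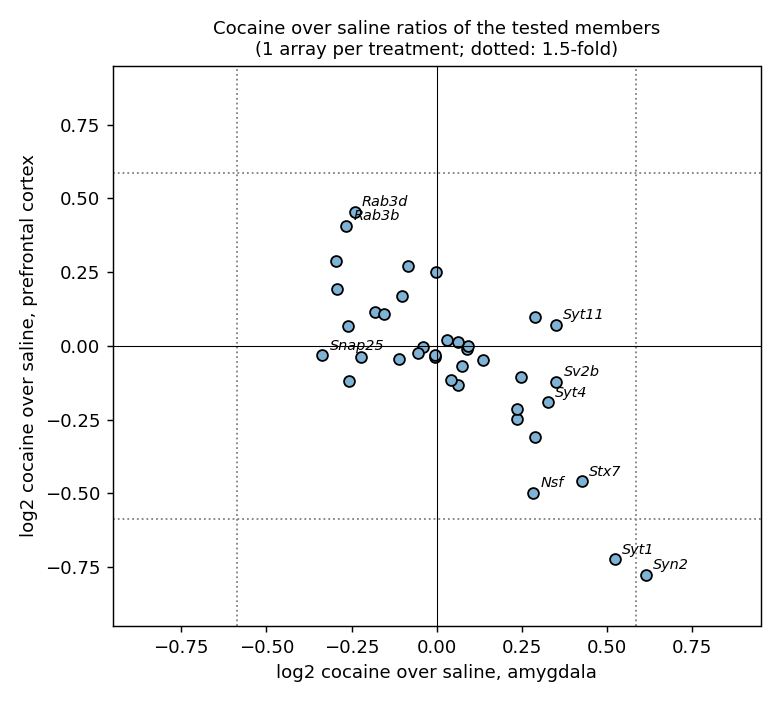
Log2 ratio of cocaine to saline in AMY (x axis) and in PFC (y axis) for the members with a value on all 4 arrays, 1 array per treatment and region, dotted lines at 1.5-fold. The points run from upper left to lower right (Pearson's r -0.76), and Syn2 lies past 1.5-fold on both axes.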

How the data were processed

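Total RNA of 10 samples, 1 per region and treatment, was measured on one-colour oligonucleotide arrays. The authors deposited intensity values on a linear scale, the dChip expression index per the labels, while its version, model and scaling were not stated in the sources used here. No further normalization was applied, and 59 control probe sets of 8799 were left out. Gene symbols came from GEO's platform annotation. Of the 593 exact zeros, 5 fell in member probe sets. The floor and zeros were treated as stated above, the upper 60% of probe sets by mean index (5244) were kept, and limma 3.58.1 (R 4.3.3, trended empirical Bayes) gave 4 residual degrees of freedom for a probe set with no zero. P-values were adjusted by Benjamini-Hochberg over all 5232 probe sets with a test, at 0.05. The fits were run on simulated arrays with independent noise and known changes. Such arrays lack the shared differences seen between the arrays here, so the run checked the code and not the p-values. An SE is on the log2 scale.

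Members, the marker and pathway lists and the rules for naming were chosen with earlier results of these data known. The rules named every member past a threshold, the 5 highest and 5 lowest treatment changes, and 4 other pathway genes per comparison, to which the remaining ones lower in CPU were added after their values were seen. Alternatives were zeros at the floor, median and quantile scaling, other floors and filters, no trend, no treatment or region term, a second probe set, other folds, leaving out each array or pair, and CPU against NA alone. The number of arrays limits the precision.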

Additional observations from a re-analysis of the deposited data

Results flagged for a closer look

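The Syn2 probe set with the highest mean differed in direction between regions under cocaine. Its log2 ratio of cocaine to saline was 0.61 in AMY, -0.78 in PFC and -0.57 in VTA. The other 2 Syn2 probe sets gave 0.17 and -0.19 in PFC and 0.0018 and -0.15 in VTA, and in AMY 1 gave 0.28 while the other was listed at 0 on the cocaine array. Syt1, the calcium sensor gene, was at 0.52 in AMY and -0.72 in PFC. Each value comes from 1 array per treatment, so these differences between regions were not tested.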

How the results depend on the processing

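Counts of called members moved by more than 1.5 times as follows. No share over all probe sets under the same setting is given, so these changes are not read as a trait of the members. With zeros at the floor, 6 differed between regions, 1 was higher in PFC, 1 higher in VTA and 0 lower in AMY. Without the filter, 5 differed, 3 were lower in CPU, 0 higher and 0 lower in AMY, 0 higher and 1 lower in PFC. Median scaling gave 0 lower in AMY and 2 higher in PFC, and quantile normalization 0 higher and 5 lower in VTA. The stricter filter gave 1 higher in CPU. Without the treatment term 1 was higher in CPU and 5 lower in VTA. A second probe set gave 0 lower in AMY and 1 higher in VTA, and against NA alone 2 were lower in CPU. Leaving out single arrays gave 3 to 16 differing between regions, 0 to 6 higher and 0 to 1 lower in AMY, 0 to 1 higher and 1 to 9 lower in CPU, 0 higher and 0 to 1 lower in NA, 1 to 8 higher and 0 to 1 lower in PFC, and 0 to 4 higher and 2 to 8 lower in VTA. Syp in CPU and Sv2b and Cplx2 in VTA kept their call under every alternative run. Of 177 alternative values of the named members, 146 kept their call, 31 lost it and 0 reversed, and of 190 with an array left out, 114 kept it, 76 lost it and 0 reversed. Cocaine across regions gave 0 members in every alternative. Within regions, 2 members were at least 1.5-fold higher in AMY after quantile normalization, and 0 with an offset in place of the floor or a second probe set. In AMY 1 was lower with zeros at the floor or a second probe set. In PFC 1 was higher with zeros at the floor or a second probe set, and lower ones were 0 with the offset and 1 with a second probe set. In VTA 1 was lower after median scaling or quantile normalization. With the limit at a log2 ratio of 0.32, 6 were higher and 1 lower in AMY, 4 lower in NA, 2 higher and 4 lower in PFC, and 2 higher and 4 lower in VTA, and at 2-fold 0 in AMY and PFC. With a second probe set the Syn1 over Syn2 shift in VTA reversed to -0.15, and the cocaine changes of Syn2 and Sv2b to 0.0071 and -0.038. Leaving out a region pair put the cocaine change between -0.289 and 0.0584 for Syn2, -0.0266 and 0.0916 for Sv2b, and -0.0692 and 0.117 for Rab3d. The causes were not tested. No paired analysis was possible because the labels give no replicate numbers and each group had 1 array, beyond the region block already in the treatment comparison.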
